A study of Caenorhabditis elegans with 10 samples.

Results

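The large subunit of the cytosolic ribosome was followed through the messenger RNAs of its protein genes in whole Caenorhabditis elegans of 2 strains. Member genes were those with a symbol of rpl- followed by a number, together with rla-0, rla-1 and rla-2, which encode the stalk proteins, and the symbols were read from RefSeq and Ensembl gene tables. The rule found 52 genes among the 46746 to which the counted rows belonged. N2 is the standard laboratory wild type, and F01D4.5(baf20) is a strain designated by the gene F01D4.5, for which the labels do not describe the change. Both were grown on plates with OP50, the Escherichia coli strain used as worm food, and were collected 48 hours after release from L1 arrest at 20 °C. Each strain had 5 biological replicates of 1000 to 2000 worms, so that every library pools many animals and all tissues. In such bulk samples, fewer cells of a type and less RNA per cell cannot be told apart.

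The large subunit carries the peptidyl transferase centre, which is built of ribosomal RNA, while its proteins shape the nascent chain exit tunnel, the stalk that receives elongation factors and the bridges to the small subunit. Ribosomal protein messenger RNAs are among the most abundant in growing animals, and nearly all of the proteins are needed in equal amounts. In C. elegans the growing germline is rich in ribosomes, and at the collection time worms pass from the last larval stage towards adulthood.

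Total counts lay between 9059910 and 11056979 per library, and 12332 genes held enough counts to be tested. F01D4.5 itself had 10.8 ± 2.93 CPM (counts scaled to a common library size) in N2 against 3.23 ± 0.738 CPM in F01D4.5(baf20) (mean ± SD, n = 5 each), and it fell, with no library overlapping the other strain (edgeR's quasi-likelihood test, Benjamini-Hochberg adjusted p = 0.0264). This gene is counted in several transcript rows, so reads shared by its transcripts may be missing from these values. The libraries numbered 5 of both strains stood apart on the first principal component, which held 56.2% of the variance. They had the lowest summed CPM of the 12 oocyte and germline markers with counts, 3815 for N2 replicate 5 and 5142 for its F01D4.5(baf20) counterpart, where the remaining 8 libraries had 6424 to 9416. Moulting epidermis markers, 11 with counts, summed to 742 and 329 CPM there against 35.4 to 160 CPM. Within a strain, the least distant libraries were F01D4.5(baf20) replicates 1 and 2. Of the listed tissue markers, pgl-1, rme-2, dpy-10, gsp-4, tni-3, unc-15, unc-22 and rgef-1 were listed at 0, and each of these has several rows.

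Large-subunit genes counted in 1 row and those counted in several had very different median levels, the cause of which was not tested. The deposited tables name most rows by transcript, so that 19 member genes were counted in 1 row and 33 in several. The 19 genes with 1 row held 88.8% of all counts of the large-subunit genes, and the 33 genes with several rows held the rest. Per kilobase of exon, the N2 level had a median of 4507 CPM in the first set and 22.9 CPM in the second. Since reads that fall on several isoforms may be missing from the second set, its levels may understate the whole gene. A difference between strains in these counts may likewise not be that of the whole gene, which was not tested.

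Among the 19 genes with 1 row, the N2 level per kilobase of exon ran from 10.9 CPM for rpl-42 to 13409.7 CPM for rpl-41.2, which encodes the smallest ribosomal protein. Next came rpl-36A at 9103 CPM per kilobase, rpl-39, whose product lines the exit tunnel, at 8907, rpl-27 at 7504 and rpl-36 at 7375. By mean CPM without regard to length, the leading genes in N2 were rla-0 at 6403, rpl-4, whose product forms part of the tunnel's narrowest stretch, at 5104, rpl-15 at 4026, rpl-41.2 at 3755 and rpl-36A at 3623. Of these 19 genes, 15 exceeded 1000 CPM in N2, and 1, rpl-42, was under 10 CPM. It entered by its symbol, and whether it encodes a protein of the finished cytosolic subunit was not settled. All 19 passed the filter on low counts.

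Of the 116 rows of the 33 other genes, 48 held counts and 68 were at 0 in every library. Counts fell in a single row for 21 genes, in several rows for 11 and in no row for rpl-26. The N2 level per kilobase of exon was highest for rpl-13 at 4452 CPM and rpl-17, the counterpart of human RPL17 at the tunnel wall, at 1610 CPM. Only these 2 exceeded 1000 CPM in N2 before division by length, and 14 genes were under 10 CPM. The filter kept 26 of the 33 genes. The other 7, with their total counts over the 10 libraries, were rpl-37.1 with 94, rpl-37.2 with 71, rpl-32 with 69, rpl-13A with 34, rpl-37A with 29, rpl-21 with 2 and rpl-26 with 0. A count of 0 allows up to 0.271 to 0.331 CPM per library, by counting error alone. The lowest mean CPM values in N2 were 0 for rpl-26, 0.0182 for rpl-21, 0.263 for rpl-13A, 0.322 for rpl-37A and 0.439 for rpl-32. Products of rpl-21, rpl-26, rpl-32 and rpl-37A are standard components of eukaryotic ribosomes. Why all 7 rows of rpl-26 were at 0 was not tested.

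**Figure D1:**
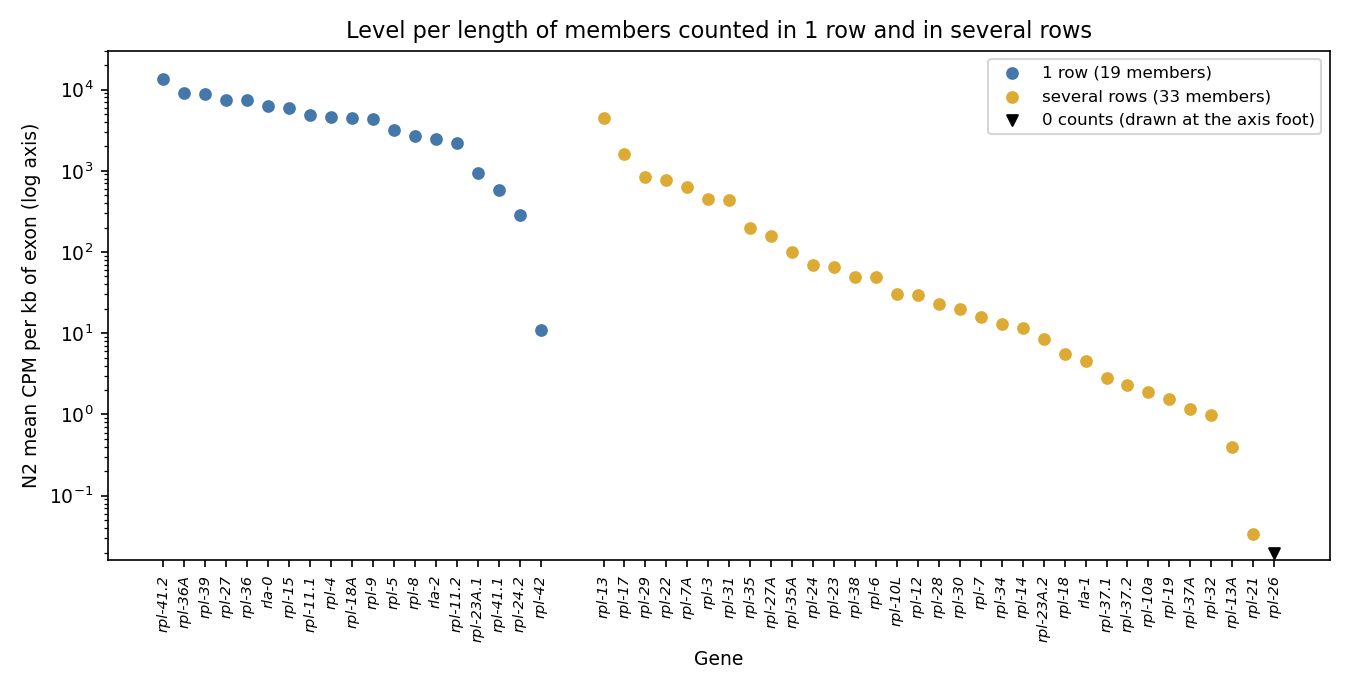
Mean level of the large-subunit genes in N2, in CPM per kilobase of exon on a log axis, with each point a gene. The genes counted in 1 row (blue) have a median of 4507, those counted in several rows (yellow) a median of 22.9, and the black triangle marks rpl-26, which had 0 counts.

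No large-subunit gene passed the threshold between the strains, an adjusted p under 0.05 after Benjamini-Hochberg adjustment in edgeR's quasi-likelihood test, with 0 of 45 tested members against 8 of all 12332 genes (0.0649%). The clearest difference lay in 6 genes with several rows, rpl-29, rpl-35A, rpl-31, rpl-27A, rpl-35 and rpl-14. In each of them all 5 F01D4.5(baf20) libraries lay below all 5 N2 libraries. These are differences in the reads assigned to rows, and whether the whole genes differ alike was not tested. Without overlap in the other direction there were 0 members when all 10 libraries were used. This 1-sidedness did not hold without both libraries numbered 5. There, 2 of the 19 members with 1 row (10.5%) and 3 of the 26 with several rows (11.5%) lay wholly above N2. The share over all genes was then 4.29%. With all 10 libraries, 0.649% of all genes tested lay wholly below N2 and 0.795% wholly above. Among the 2408 tested genes with several rows 35 lay wholly below, or 1.45%, and among the 9924 with 1 row 45 did. The 6 genes are 23.1% of the 26 tested members with several rows, whereas 0 of the 19 with 1 row lay wholly below. Whether the 2 sets differ in this was not tested. DESeq2's Wald test, run on the same table, called 2 members, rpl-29 and rpl-35A, among 33 genes (0.268%).

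At an unadjusted p under 0.05 by edgeR's quasi-likelihood test, 9 members were lower in F01D4.5(baf20) and 2 higher, where all genes gave 2.24% and 3.52%. The 9 were rpl-18A with 1 row and rpl-29, rpl-35A, rpl-31, rpl-27A, rpl-35, rpl-14, rpl-34 and rpl-18 with several, and the 2 were rpl-12 and rpl-23, both with several rows. Of all 2408 tested genes with several rows, 101 were lower at this level (4.19%) and 96 higher. Without both libraries numbered 5, 1 member with 1 row was lower and 4 higher, and 7 with several rows were lower and 4 higher. Of all 12305 genes tested there, 1002 were lower and 898 higher. The median log2 fold change (F01D4.5(baf20) minus N2) was −0.02 for the 19 members with 1 row, of which 11 were negative. It was −0.11 for the 26 tested members with several rows, of which 18 were negative. Over all genes tested it was 0.02, with 46.8% negative. With upper-quartile factors, DESeq2's size factors or TMM factors computed without ribosomal protein genes, 11 and 18 members were again negative, and without both libraries numbered 5, 9 and 14 were. The median of the members with 1 row turned to 0.00 or above without N2 replicate 2, without N2 replicate 5 or without both libraries numbered 5, where it was 0.01 in the last.

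**Figure D2:**
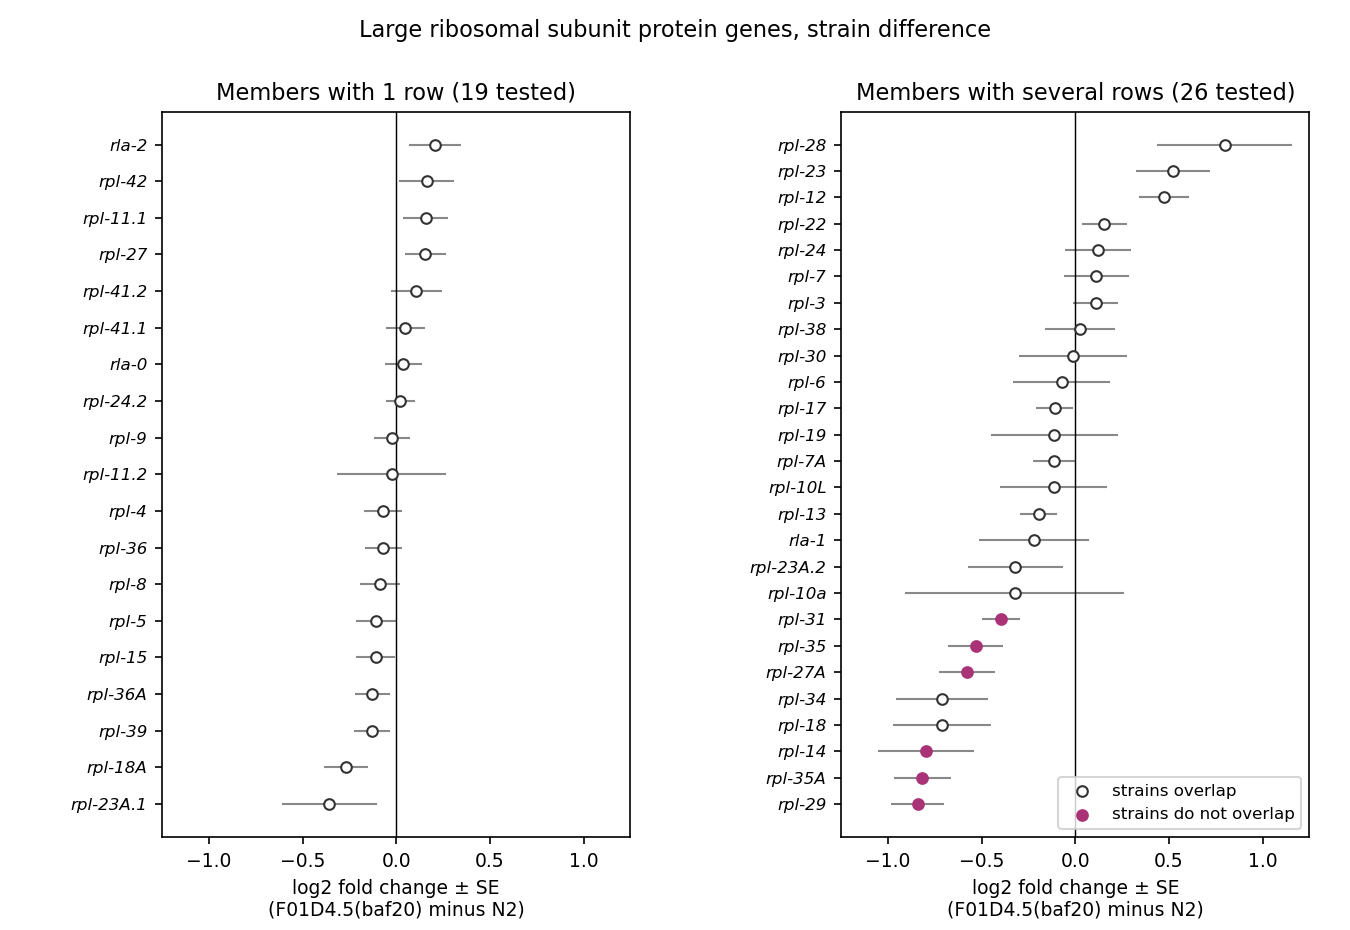
Log2 fold change of each tested large-subunit gene, F01D4.5(baf20) minus N2, with bars of ± SE from the edgeR fit. The genes counted in 1 row (left) lie between −0.36 and 0.21, those counted in several rows (right) between −0.84 and 0.80, and filled points mark the 6 genes whose strains did not overlap.

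rpl-29 and rpl-35A had the smallest p-values of the large-subunit genes, the 13th and the 17th of all 12332. rpl-29 encodes a small basic protein of the large subunit, which in budding yeast is dispensable for growth. It lies on the plus strand of chromosome IV at 13882225 to 13882618 (WBcel235), with no other annotated gene across it. Its level in N2 replicates 1 to 5 was 166, 239, 157, 235 and 211 CPM. In F01D4.5(baf20) replicates 1 to 5 it was 112, 107, 133, 102 and 109.5 CPM. The strains did not overlap, N2 replicates 1 and 3 were the lowest of N2, and F01D4.5(baf20) replicate 3 was the highest of its strain. The level was 201.6 ± 38.3 CPM in N2 against 112.5 ± 11.9 CPM in F01D4.5(baf20) (mean ± SD, n = 5 each), 1.79-fold lower. The log2 fold change of −0.84 (SE 0.139) had an adjusted p of 0.0784 by edgeR's quasi-likelihood test and missed the threshold. DESeq2's Wald test gave −0.85 with a Benjamini-Hochberg adjusted p of 0.000114. Over 21 alternatives the log2 fold change lay between −0.92 and −0.77 and the adjusted p, by edgeR in all but that of DESeq2, between 0.000114 and 0.999, the last without F01D4.5(baf20) replicates 1 and 2.

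All 15788 counts of rpl-29 stood in row B0513.3a, and row B0513.3b, a shorter transcript at 13882489 to 13882584, held 0 in all 10 libraries. In row B0513.3a, N2 replicates 1 to 5 had 1832, 2311, 1450, 2587 and 2034 counts, and F01D4.5(baf20) replicates 1 to 5 had 1092, 1065, 1316, 1132 and 969. The raw counts of the strains did not overlap either. In the Ensembl annotation, 144 of the 240 bases of B0513.3a lie in no other row of the gene, whereas 0 of the 96 bases of B0513.3b do. Tested as a row of its own among 12739 rows, B0513.3a had a log2 fold change of −0.86 and an adjusted p of 0.0761 by edgeR's quasi-likelihood test.

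rpl-35A is named rpl-33 in the Ensembl annotation and is the counterpart of human RPL35A, in which mutations cause Diamond-Blackfan anaemia. It lies on the plus strand of chromosome II at 7105563 to 7106316 (WBcel235), and no other annotated gene overlaps it. N2 replicates 1 to 5 had 42.2, 46.7, 31.1, 46.2 and 56.4 CPM. F01D4.5(baf20) replicates 1 to 5 had 26.3, 23.4, 25.4, 23.3 and 28.0 CPM. No library of either strain reached into the range of the other, and N2 replicate 3 came closest. The level was 44.5 ± 9.14 CPM in N2 against 25.3 ± 2.004 CPM in F01D4.5(baf20) (mean ± SD, n = 5 each), 1.76-fold lower, with a log2 fold change of −0.82 (SE 0.151) and an adjusted p of 0.152 by edgeR's quasi-likelihood test. DESeq2's Wald test gave −0.83 with a Benjamini-Hochberg adjusted p of 0.000819. Its adjusted p over the same 21 alternatives, likewise by edgeR in all but DESeq2's, ranged from 0.000819 to 0.999, and the log2 fold change from −0.92 to −0.72.

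The 3506 counts of rpl-35A all stood in row F10E7.7.2, and F10E7.7.1 was at 0 in all 10 libraries. Row F10E7.7.2 had 465, 452, 288, 508 and 543 counts in N2 replicates 1 to 5 and 257, 234, 252, 259 and 248 in F01D4.5(baf20) replicates 1 to 5. The lowest N2 count, that of replicate 3, exceeded the highest of the other strain. In the Ensembl models the 2 rows are nearly the same transcript, as F10E7.7.1 has 2 bases of its own at the end of the gene, 7106315 to 7106316, and F10E7.7.2 has 0. Which annotation release served the counting was not given, and the difference above is that of the reads assigned to F10E7.7.2. As a row, F10E7.7.2 had a log2 fold change of −0.84 (edgeR's quasi-likelihood test, adjusted p = 0.152).

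The 4 further genes without overlap include proteins of the exit tunnel's rim. rpl-31 lies on chromosome I at 13652949 to 13653704, minus strand, and rpl-35 on chromosome III at 7855134 to 7855646, plus strand (WBcel235). rpl-31, whose yeast counterpart helps to anchor a ribosome-bound chaperone complex, had 183, 230.3, 169, 181 and 188 CPM in N2 replicates 1 to 5. F01D4.5(baf20) replicates 1 to 5 had 152, 142, 145, 129.6 and 154 CPM. N2 replicate 2 was highest and F01D4.5(baf20) replicate 4 lowest, and the log2 fold change was −0.40 (edgeR's quasi-likelihood test, adjusted p = 0.473).

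rpl-35, a tunnel-rim protein near which the signal recognition particle docks, had 79.4, 85.4, 81.1, 81.3 and 123 CPM in N2 replicates 1 to 5. In the other strain it had 74.6, 66.7, 60.5, 53.7 and 55.95 CPM. N2 replicate 5 lay far above the other N2 libraries, which differed little from each other. The log2 fold change was −0.53 (edgeR's quasi-likelihood test, adjusted p = 0.533). All 7618 counts stood in row ZK652.4.3, a transcript that is not in the Ensembl annotation, so the bases counted are not known.

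rpl-27A (chromosome I at 2069681 to 2070607, minus strand), which encodes a core protein of the subunit, had 62.9, 74.6, 61.5, 70.5 and 105 CPM in N2 replicates 1 to 5. In F01D4.5(baf20) replicates 1 to 5 the values were 56.1, 48.6, 50.2, 44.9 and 51.7 CPM. N2 replicate 5 was again the highest, and the lowest N2 library exceeded F01D4.5(baf20) replicate 1 narrowly. The log2 fold change was −0.58 (edgeR's quasi-likelihood test, adjusted p = 0.492). Annotated genes overlap rpl-27A on both strands. Y37E3.22 and Y37E3.21 lie on its own strand, where no strand setting can tell reads apart. Y37E3.28 lies on the opposite strand, and the strand setting was not stated.

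rpl-14, a structural protein of the subunit, had far fewer counts, 259 in all of N2 and 147 in all of F01D4.5(baf20). Its N2 values in replicate order were 3.81, 5.17, 4.32, 4.36 and 8.20 CPM, and its F01D4.5(baf20) values were 3.38, 1.90, 3.73, 2.78 and 3.05 CPM. The gap between the strains was narrow, and N2 replicate 5 was the highest library. The log2 fold change was −0.80 (edgeR's quasi-likelihood test, adjusted p = 0.756). All counts stood in row C04F12.4.2, which is likewise not in the Ensembl annotation. The gene lies on chromosome I at 9689197 to 9690081, plus strand, and on the opposite strand it overlaps nssp-7.

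**Figure D3:**
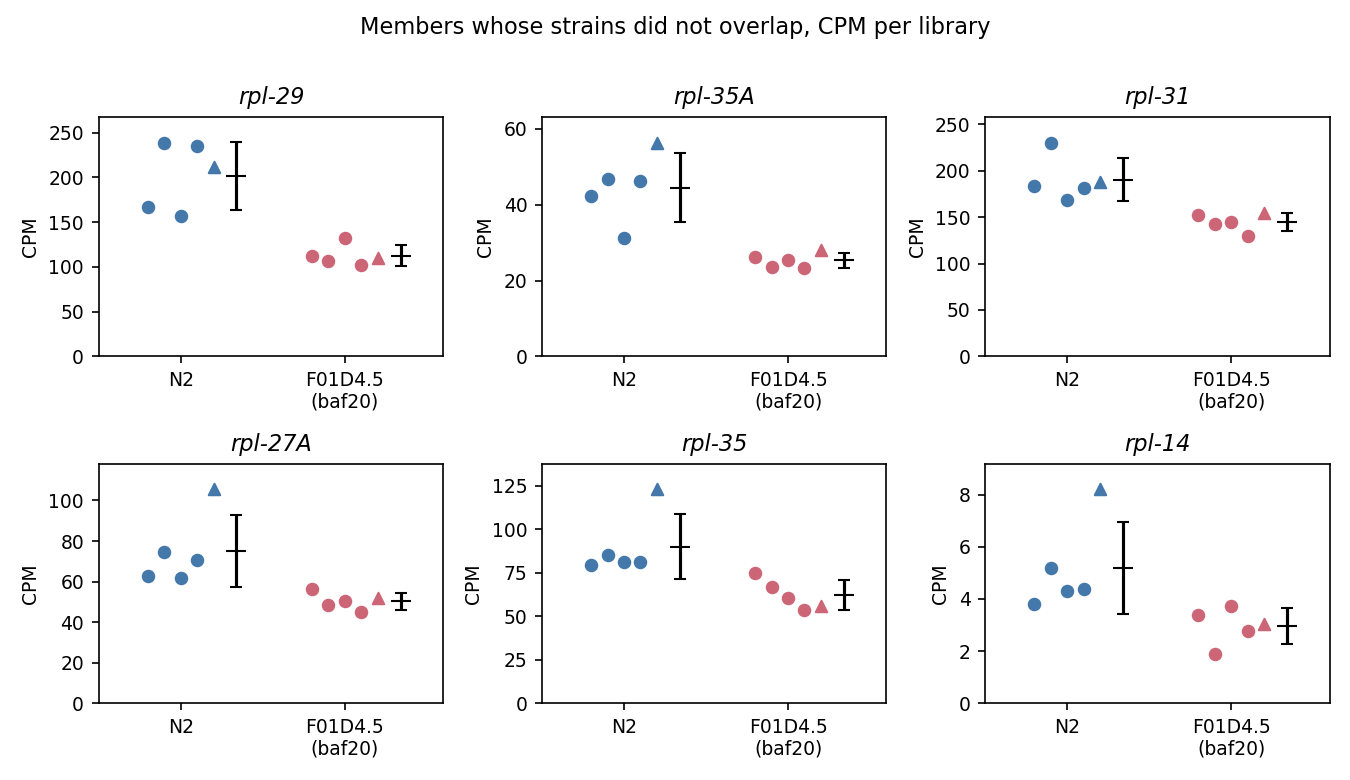
CPM per library of the 6 large-subunit genes whose strains did not overlap, with N2 in blue, F01D4.5(baf20) in red, triangles for the libraries numbered 5 and bars for mean ± SD (n = 5 each). In rpl-29 the N2 libraries lie between 157 and 239 CPM and the F01D4.5(baf20) libraries between 102 and 133 CPM, and none of the 6 genes passed the edgeR threshold.

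Apart from small shifts in scaling, leaving out libraries cannot make groups overlap that did not, so these 6 genes stay apart by their choice, and it is the number of added genes and the background that can move. rpl-34 was added without N2 replicate 1, and rpl-18 without F01D4.5(baf20) replicate 1 and without both F01D4.5(baf20) replicates 1 and 2. Without both libraries numbered 5, 0 were added below N2, while 3.52% of all tested genes and 4.88% of those with several rows lay wholly below N2. In the other direction, rpl-12, rpl-23, rpl-28, rpl-11.1 and rpl-27 then lay wholly above N2, as did 4.29% of all genes. N2 replicate 5 was the highest library for rpl-35A, rpl-27A, rpl-35 and rpl-14.

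rpl-34 and rpl-18, structural proteins of the subunit, had lower means in F01D4.5(baf20) with overlapping strains. They lie on chromosome IV at 12268995 to 12269490, plus strand, and on chromosome IV at 13777865 to 13778809, plus strand. rpl-34 had 2.91, 5.06, 4.86, 4.18 and 7.16 CPM in N2 replicates 1 to 5 and 2.66, 3.51, 3.53, 2.52 and 2.49 CPM in F01D4.5(baf20) replicates 1 to 5. Only N2 replicate 1 lay within the range of the other strain, and the log2 fold change was −0.71 (edgeR's quasi-likelihood test, adjusted p = 0.770). rpl-18 had 2.54, 4.96, 2.59, 3.64 and 4.26 CPM against 2.87, 1.40, 2.32, 1.89 and 2.49 CPM in replicate order. F01D4.5(baf20) replicate 1 lay above N2 replicates 1 and 3, and the log2 fold change was −0.71 (edgeR's quasi-likelihood test, adjusted p = 0.783).

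rpl-12 and rpl-23 had higher means in F01D4.5(baf20). They lie on chromosome IV at 13239587 to 13240651, minus strand, and on chromosome III at 5705525 to 5706127, minus strand, where rpl-23 overlaps swp-1 on the same strand. rpl-12 encodes the protein at the base of the stalk, and in C. elegans its alternatively spliced transcripts are known targets of nonsense-mediated decay. It had 23.9, 23.05, 23.6, 18.9 and 27.6 CPM in N2 replicates 1 to 5 and 37.97, 34.9, 31.9, 30.5 and 27.4 CPM in F01D4.5(baf20) replicates 1 to 5. The strains met only in the libraries numbered 5, where N2 exceeded F01D4.5(baf20) slightly. The log2 fold change was 0.47 (edgeR's quasi-likelihood test, adjusted p = 0.555).

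rpl-23, whose counterpart in yeast and humans binds initiation factor 6 on the face towards the small subunit, had 27.2, 27.7, 36.2, 24.2 and 51.5 CPM in N2 replicates 1 to 5. F01D4.5(baf20) replicates 1 to 5 had 51.4, 49.4, 40.4, 46.3 and 51.9 CPM. N2 replicate 5 alone lay within the F01D4.5(baf20) range, and the log2 fold change was 0.52 (edgeR's quasi-likelihood test, adjusted p = 0.793). Without both libraries numbered 5, rpl-12, rpl-23, rpl-28, rpl-11.1 and rpl-27 lay wholly above N2, where 4.29% of all genes did. rpl-28 had the most positive difference of all tested members, a log2 fold change of 0.80 (SE 0.362, with an adjusted p of 0.862 by edgeR's quasi-likelihood test), from 10.3 ± 6.35 CPM in N2 to 17.9 ± 3.73 CPM (SD, n = 5 each), where the range of N2, 4.09 to 20.97 CPM with its highest value in replicate 5, holds that of F01D4.5(baf20), 11.4 to 20.6 CPM.

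rpl-18A, on chromosome IV at 4749123 to 4749778, minus strand, was the gene with 1 row at an unadjusted p under 0.05. It had 2202, 3329.6, 2455, 2794 and 2921 CPM in N2 replicates 1 to 5 and 2551, 2119.8, 2260.2, 2300.3 and 2158 CPM in F01D4.5(baf20) replicates 1 to 5. The strains overlapped, with N2 replicates 1 and 3 within the range of F01D4.5(baf20) and F01D4.5(baf20) replicates 1, 3 and 4 within that of N2. The log2 fold change was −0.27 (SE 0.118, with an adjusted p of 0.854 by edgeR's quasi-likelihood test).

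The stalk genes showed no difference that exceeded their spread. rla-0 encodes P0, the scaffold on which the acidic proteins P1 and P2 sit, and rla-1 and rla-2 encode these. rla-0 had 5952, 7300.3, 6159, 5679.98 and 6925 CPM in N2 replicates 1 to 5 and 6491, 6234, 6101, 7032 and 7028 CPM in F01D4.5(baf20) replicates 1 to 5. The strains overlapped widely, with a log2 fold change of 0.04 (SE 0.0974, with an adjusted p of 0.96 by edgeR's quasi-likelihood test). rla-2 had 896 to 1453 CPM in N2 (median 1138) and 1104 to 1377 CPM in F01D4.5(baf20) (median 1277), with a log2 fold change of 0.21 (SE 0.14, with an adjusted p of 0.903 by edgeR's quasi-likelihood test). rla-1 was counted in row Y37E3.7.2 alone, with 188 counts in all 10 libraries, and ranged from 1.30 to 3.20 CPM in N2 (median 1.77) and from 0.921 to 2.07 CPM in F01D4.5(baf20) (median 1.92). Per kilobase of exon, the counted N2 level of rla-1, a gene with 2 rows, was 4.57 CPM where that of rla-0 was 6199 CPM.

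rpl-5 and rpl-11 proteins join the 5S ribosomal RNA in a particle that docks late into the large subunit. rpl-5 had 3255 ± 365 CPM in N2 against 3020.1 ± 306 CPM in F01D4.5(baf20) (mean ± SD, n = 5 each), a log2 fold change of −0.11 (SE 0.107). Its partner comes from the genes rpl-11.1 and rpl-11.2. Their sequences were not compared here, so whether reads were shared between them is not known and their division is uncertain. rpl-11.1 had 3705, 3243, 3272, 3047 and 2737 CPM in N2 replicates 1 to 5 and 3809, 3750.02, 3750.1, 3816 and 2737 CPM in F01D4.5(baf20) replicates 1 to 5. rpl-11.2 had 1111, 1310.02, 1461, 1349 and 2799.6 CPM in N2 against 1391, 1355, 1215, 1306 and 2631 CPM in F01D4.5(baf20), in the same order. In both strains replicate 5 was the lowest for rpl-11.1 and the highest for rpl-11.2. Of the pair's CPM, rpl-11.1 made up 49.4% (N2) and 51.0% (F01D4.5(baf20)) in these libraries, where the remaining 8 had 69.1% to 76.9%. The summed germline and epidermal markers given above moved in the same libraries, and their part in this was not tested. Between the strains, the log2 fold changes were 0.16 for rpl-11.1 and −0.02 for rpl-11.2 (edgeR's quasi-likelihood test, adjusted p = 0.91 and 0.991). That of rpl-11.2 was positive in 8 of 21 alternatives, with 0.27 without N2 replicate 5.

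rpl-23A.1 and rpl-23A.2 encode the tunnel-rim protein that contacts the signal recognition particle. rpl-23A.1, with 1 row, had 289.8, 530.2, 367, 476 and 659.98 CPM in N2 replicates 1 to 5 and 348, 284, 308, 296 and 577 CPM in F01D4.5(baf20) replicates 1 to 5. The libraries numbered 5 were the highest of both strains, and the log2 fold change of −0.36 (SE 0.253) was the most negative of the genes with 1 row. rpl-23A.2, with 4 rows of which 1 held counts, ranged from 2.91 to 6.30 CPM in N2 (median 3.91) and from 2.26 to 4.31 CPM in F01D4.5(baf20) (median 3.11). Its lowest library in each strain was that numbered 5, opposite to rpl-23A.1, but on few counts, 28 in N2 and 20 in F01D4.5(baf20). Replicates 1 to 4 had 42, 61, 38 and 43 counts in N2 and 28, 31, 42 and 48 in F01D4.5(baf20).

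rpl-41.1 and rpl-41.2 stand beside each other on chromosome I and encode the short basic peptide at a bridge between the subunits. Both rows are marked as pseudogenes in the deposited tables, whereas Ensembl annotates both genes as protein coding. rpl-41.2 had 3259, 3402, 3609, 3309.8 and 5194 CPM in N2 replicates 1 to 5 and 4178, 4208, 3564, 4139 and 4126 CPM in F01D4.5(baf20) replicates 1 to 5. N2 replicate 5 was the highest of all 10 libraries and F01D4.5(baf20) replicate 3 the only one of its strain within the N2 range of replicates 1 to 4. rpl-41.1 ranged from 166 to 242 CPM in N2 (median 185) and from 194 to 210.03 CPM in F01D4.5(baf20) (median 199). rpl-41.2 took 94.3% to 95.6% of the pair's CPM in every library, a share that overlapped between the strains. The zinc-binding pair rpl-37.1 and rpl-37.2 had 94 and 71 counts in all and was not tested, with 0.454 to 1.56 CPM and 0.454 to 1.04 CPM in N2 against 0.717 to 1.47 CPM and 0.452 to 1.01 CPM in F01D4.5(baf20).

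**Figure D4:**
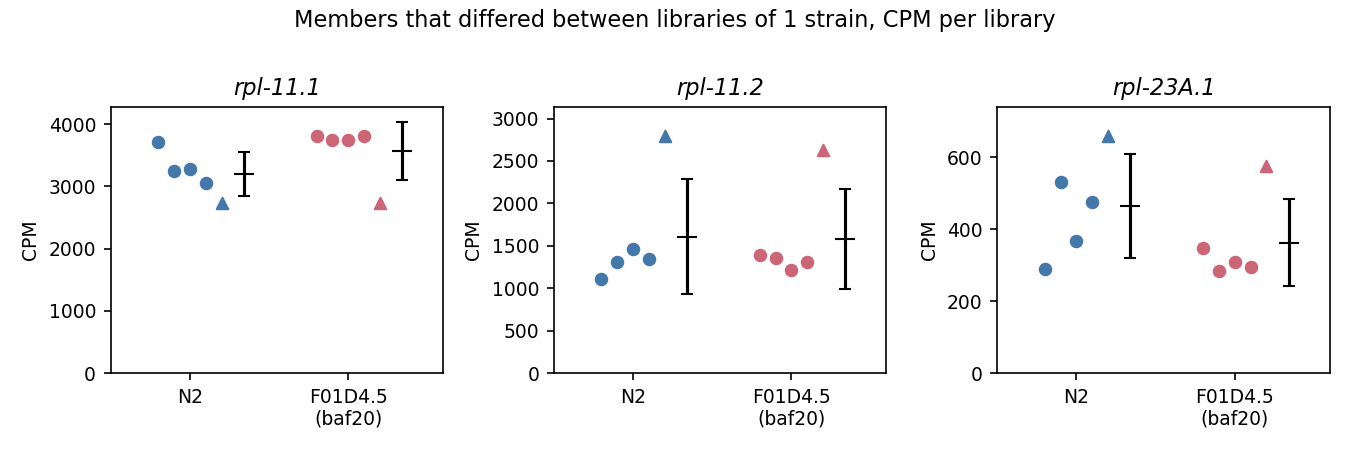
CPM per library of rpl-11.1, rpl-11.2 and rpl-23A.1, with N2 in blue, F01D4.5(baf20) in red, triangles for the libraries numbered 5 and bars for mean ± SD (n = 5 each). The libraries numbered 5 are the lowest for rpl-11.1, at 2737 CPM in both strains, and the highest for rpl-11.2 and rpl-23A.1.

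Among the remaining genes with 1 row, log2 fold changes lay close to 0. The tunnel proteins rpl-4 and rpl-39 had −0.07 (SE 0.102) and −0.13 (SE 0.0961), and rpl-8, whose product lies near the peptidyl transferase centre, had −0.09 (SE 0.106). rpl-9 had −0.02, rpl-15 −0.11, rpl-36 −0.07, rpl-36A −0.13, rpl-27 0.15 and rpl-42 0.16. rpl-24.2 had 0.02 (SE 0.0768) and the smallest spread of all tested members, an SD of 0.0647 on the log2 CPM scale over the 10 libraries. Its yeast counterpart Rlp24 is an assembly factor of the precursor subunit and not a protein of the finished ribosome.

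Of the tested genes with several rows not yet named with a difference, rpl-13 had −0.20 (SE 0.0998), rpl-17 −0.11, rpl-7A −0.11, rpl-22 0.15 and rpl-3, which reaches towards the peptidyl transferase centre, 0.11. These 5 had N2 means of 393 to 2956 CPM. rpl-10L, the counterpart of the late-joining protein uL16, had −0.12 (SE 0.286), rpl-6 −0.07, rpl-7 0.11, rpl-24 0.12, rpl-30 −0.01 and rpl-38 0.02. rpl-10a, rpl-23A.2, rla-1 and rpl-19 had −0.32, −0.32, −0.22 and −0.11, with SEs of 0.586, 0.253, 0.295 and 0.339. The largest of these SEs, that of rpl-10a, goes with an SD of 0.930 on the log2 CPM scale over the 10 libraries, the highest of the tested members.

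Row by row, 0 of 52 member rows tested passed edgeR's quasi-likelihood test over 12739 rows, of which 8 passed (0.0628%), whereas 10 member rows were lower and 3 higher at an unadjusted p under 0.05 (2.64% and 3.19% of all rows). In 6 member rows F01D4.5(baf20) lay wholly below N2, as in 0.738% of all rows. Most of the 13 repeat the gene-level values, since all or nearly all counts of the gene stand in that row. These were C04F12.4.2 of rpl-14, Y45F10D.12.3 of rpl-18, C42C1.14.2 of rpl-34, ZK652.4.3 of rpl-35, B0336.10.3 of rpl-23 and the row of rpl-18A, besides those of rpl-29 and rpl-35A. The rows given for rpl-14, rpl-18, rpl-34, rpl-35 and rpl-23 are not in the Ensembl annotation. W09C5.6a of rpl-31 had a log2 fold change of −0.38 (edgeR's quasi-likelihood test, adjusted p = 0.299), and C27A2.2a, which held 2.27% of the N2 counts of rpl-22, had 0.42 (edgeR's quasi-likelihood test, adjusted p = 0.854).

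Among members with 2 or more tested rows, rpl-27A, rpl-38 and rpl-30 had log2 fold changes of opposite sign between rows. In rpl-30 these were 0.41 (SE 0.327) for Y106G6H.3c.1 and −0.20 (SE 0.298) for Y106G6H.3c.2, and in the other 2 genes at least 1 row had an unadjusted p under 0.05. Y37E3.8a of rpl-27A had 644, 690, 515, 704 and 911 counts in N2 replicates 1 to 5 and 423, 372, 421, 392 and 382 in F01D4.5(baf20) replicates 1 to 5, without overlap. Y37E3.8b.1 of the same gene had 46, 30, 54, 67 and 102 against 120, 108, 72, 106 and 71 counts. Their log2 fold changes were −0.79 (adjusted p = 0.194) and 0.66 (adjusted p = 0.854) by edgeR's quasi-likelihood test. Y37E3.8a held 91.8 ± 2.41% of the gene's counts in N2 and 80.1 ± 3.70% in F01D4.5(baf20) (SD, n = 5 each), and the strains did not overlap in this share.

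For rpl-38, C06B8.8.4 had 441 counts in N2 and 579 in F01D4.5(baf20), whereas C06B8.8.6 had 56, 42, 39, 83 and 88 counts in N2 replicates 1 to 5 and 32, 47, 24, 45 and 27 in F01D4.5(baf20) replicates 1 to 5. C06B8.8.4 held 64.3%, 57.6%, 71.3%, 44.7% and 57.5% of the gene's counts in N2 and 75.0%, 71.9%, 83.1%, 76.7% and 78.2% in F01D4.5(baf20). The highest N2 share, in replicate 3, lay just under the lowest of the other strain, in replicate 2. The counts of both rows overlapped between the strains, while the share of C06B8.8.4 did not, with a mean of 59.1 ± 9.87% in N2 against 77.0 ± 4.16% in F01D4.5(baf20) (SD, n = 5 each). The log2 fold changes were 0.38 for C06B8.8.4 and −0.81 for C06B8.8.6 (edgeR's quasi-likelihood test, adjusted p = 0.893 and 0.73). The share of the largest row was without overlap in these 2 of 10 tested members with several counted rows, and in 19 of 1227 such genes overall (1.55%). These shares were chosen for description after their values were seen and were not tested. Shares of rows count only the reads that were assigned to a row.

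As a whole, large-subunit genes took 5.49 ± 0.403% of all counts in N2 and 5.40 ± 0.274% in F01D4.5(baf20) (SD, n = 5 each), a difference within the spread. For the genes with several rows alone the shares were 0.638 ± 0.0409% and 0.585 ± 0.0357%. Over the 10 libraries, the SD of log2 CPM had a median of 0.147 for members with 1 row, 0.401 for tested members with several rows and 0.319 for all genes tested. N2 replicate 5 was the highest library for 11 of the 19 members with 1 row and 15 of the 26 tested members with several rows, and N2 replicate 2 for 6 and 8. The same shares over all genes tested were not computed, so this is not shown to be particular to the members.

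In lists of related genes, 0 genes passed edgeR's quasi-likelihood test after adjustment, and the number at an unadjusted p under 0.05 is given for each list. Of 33 small-subunit genes, 23 were tested, 13 of them negative, with a median log2 fold change of −0.05 and 1 gene higher and 1 lower at the unadjusted level. These were rps-24, which had 0.82 (adjusted p = 0.835), and rps-12, which had −0.47 (adjusted p = 0.608), by edgeR's quasi-likelihood test. Their strains overlapped.

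Of 27 tested initiation genes, 20 were positive, with a median of 0.04, and 1 was lower at the unadjusted level. This was eif-2A, with 8.48 ± 1.77 CPM in N2 against 4.17 ± 0.878 CPM in F01D4.5(baf20) (mean ± SD, n = 5 each), strains without overlap and a log2 fold change of −1.02 (edgeR's quasi-likelihood test, adjusted p = 0.219). eif-2A too is counted in several rows, 3 in number, and eif-3.H, a subunit of initiation factor 3, had 0.16. For elongation, 5 of 6 tested genes were positive with a median of 0.12, with 0.16 for tct-1 and −0.51 for eef-1A.2, and 0 had an unadjusted p under 0.05.

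Ribosome biogenesis genes had a median of 0.03 over 21 tested genes, 14 positive, with 0.14 for rrp-8 and −0.15 for ebp-2, which in C. elegans names a microtubule end-binding protein, and 0 at the unadjusted level. The RNA polymerase I and III list had a median of 0.10 over 9 tested genes, with 1 higher at the unadjusted level, rpac-19, a subunit shared by both polymerases, at 0.95 (edgeR's quasi-likelihood test, adjusted p = 0.811), and −0.59 for tbp-1, the TATA-binding protein. Nonsense-mediated decay genes had a median of 0.07 over 10 tested genes, 8 positive, with 0.38 for smg-4, −0.11 for smg-6 and 0 at the unadjusted level.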

How the data were processed

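Whole-worm RNA was sequenced from 5 N2 and 5 F01D4.5(baf20) samples. RNA came from QIAzol and miRNeasy extraction and libraries from the TruSeq Stranded mRNA kit, per the labels' protocols. CASAVA, HISAT2, HTSeq and DESeq2 were used, and the builds ce10 and ce11 appear, per the submitters' processing notes. The build, annotation release and strand setting behind the counting were not given in the sources consulted. The authors deposited whole-number counts, not normalized, for 57827 rows per sample. Rows are mostly transcripts, so reads shared by isoforms may be missing.

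By name, 57515 rows, which hold 99.8% of counts, were assigned to genes of the Ensembl release 115 annotation of WBcel235, and 312 were not. A row whose transcript name is not in that release was assigned by the sequence name of its gene. The counted rows of rpl-14 and rpl-35 are examples. Row counts were summed to 46746 genes. Symbols came from RefSeq and then Ensembl, which differ for 18 members. No row lacked a name. Any reads shared between numbered paralogs (rpl-11.1 and rpl-11.2, rpl-23A.1 and rpl-23A.2, rpl-37.1 and rpl-37.2, rpl-41.1 and rpl-41.2) were not separated further. The sequences of these pairs were not compared.

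The comparison of strains used edgeR 4.0.16 (R 4.3.3) with filterByExpr (minimum count 10, minimum total count 15), TMM scaling and a robust quasi-likelihood F test, two-sided, with strain as the only term. Benjamini-Hochberg adjustment ran over all 12332 genes tested, and adjusted p-values under 0.05 were called. edgeR's common biological coefficient of variation came to 0.325. CPM divide the deposited counts by the TMM-scaled library size, and log2 CPM uses a prior count of 2. In any library 3 counts equal 0.271 to 0.331 CPM of the unscaled total, which covers counting error only. All pairs of libraries within a strain differed by more than counting error, where chi-square divided by its degrees of freedom was 2.20 for F01D4.5(baf20) replicates 1 and 2 and 5.85 to 129 for the others.

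The alternatives were DESeq2 1.42.0, edgeR with size factors from DESeq2, edgeR with upper-quartile factors, TMM without ribosomal protein genes, no filter on low counts, at least 5 CPM in at least 5 samples, a replicate block, rows as deposited, removal of each library, removal of both libraries numbered 5 and F01D4.5(baf20) replicates 1 and 2 added together. Removal of F01D4.5(baf20) replicates 1 and 2 was chosen after seeing the data, as were the repeats of the counts of members with libraries left out. The procedure was tested on simulated data.

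The members, lists and tests were chosen with earlier results of these data known. The rule named rpl-29, rpl-35A, members with an unadjusted p under 0.05 or strains without overlap, the rla genes, numbered paralogs, the 5 highest and the 5 lowest by mean CPM, and the 2 smallest p of each list. Marker lists for sperm, intestine, body wall muscle and neurons were also summed per library, and 0 of their tested genes passed. Sperm markers summed to 436 to 517 CPM in N2 and 405 to 602 CPM in F01D4.5(baf20), intestine to 2048 to 2415 and 1822 to 2877, body wall muscle to 4074 to 5134 and 4385 to 4707, and neurons to 295 to 377 and 317 to 363.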

Additional observations from a re-analysis of the deposited data

Results flagged for a closer look

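In 44 groups of 5 values, those of the 22 named members in each strain, a library was marked when its gap to the nearest other library exceeded 0.71 of the group's range. Chance marks about 1 in 20 such groups. There were 7 marks, 6 of them in the libraries numbered 5. For rpl-11.1, F01D4.5(baf20) replicate 5 was far below the rest, at 2737 CPM against 3750.02 CPM for the nearest library. For rpl-11.2, N2 replicate 5 was far above, at 2799.6 CPM against 1461 CPM, and so was F01D4.5(baf20) replicate 5, at 2631 CPM against 1391 CPM. For rpl-23A.1, F01D4.5(baf20) replicate 5 had 577 CPM where the next library had 348 CPM. For rpl-35, N2 replicate 5 had 123 CPM and the next N2 library 85.4 CPM. For rpl-41.2, N2 replicate 5 had 5194 CPM and the next N2 library 3609 CPM, and F01D4.5(baf20) replicate 3 was far below its strain, at 3564 CPM against 4126 CPM.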

How the results depend on the processing

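The number of large-subunit genes past the threshold was 0 under all alternatives other than DESeq2, which gave 2, rpl-29 and rpl-35A. The number of all genes past it, 8 in the comparison as reported, moved to 33 with DESeq2, 5 with no filter on low counts, 18 without both libraries numbered 5, 2 with F01D4.5(baf20) replicates 1 and 2 summed and 2 without those replicates. With 1 library left out it ranged from 2 to 13, with 13 without F01D4.5(baf20) replicate 5 and 2 to 4 without each of the others. The median log2 fold change stayed between −0.10 and 0.01 for members with 1 row and between −0.22 and −0.09 for tested members with several rows. Of the 20 named members that were tested, 16 kept their sign under every alternative run. For rpl-11.2 the log2 fold change turned positive in 8 of 21, with 0.00729 without both libraries numbered 5, 0.0168 with F01D4.5(baf20) replicates 1 and 2 summed and 0.0942 without them, and from −0.29 to 0.27 with 1 library left out. With 1 library left out, rla-0 ranged from −0.00788 to 0.0904, rla-1 from −0.35 to 0.00306 and rpl-41.1 from −0.00268 to 0.14. Of same-numbered libraries, those numbered 5 deviated together, with a correlation of 0.822, and only they correlated best with their own number. Replicates 1 to 4 had 0.153, 0.145, 0.00185 and −0.131, so the numbers were not taken to pair the samples. With the replicate block, 6 genes and 0 members passed, with adjusted p of 0.0916 for rpl-29 and 0.0719 for rpl-35A by edgeR's quasi-likelihood test. Low counts limit 14 of the 33 members with several rows, which had under 10 CPM in N2, and 7 of the 33 were not tested. Transcript rows hold only reads assigned to them, so levels of those genes may be understated by an unknown amount. Their strain differences are those of the assigned reads and may not hold for the whole gene.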
